A study of Mus musculus with 9 samples.

Results

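The genes described here code for proteins of the smooth muscle type contractile apparatus and are used as a marker set of contractile fibroblasts. Not all of them are particular to such cells, since *Tagln2* and *Cnn2* are found in many cell types. They are the 10 genes *Acta2*, *Actg2*, *Myl9*, *Tagln*, *Tagln2*, *Cnn1*, *Cnn2*, *Cald1*, *Tpm1* and *Tpm2*, of 54232 genes counted, and were chosen by name: each symbol matched 1 Ensembl identifier of the count table, and all 10 passed the filter on low counts in every test. RNA was sequenced from naïve mouse embryonic stem cells (mESCs), from primed epiblast stem cells (mEpiSCs) converted from them, and from mouse embryonic fibroblasts (MEFs), all labelled as strain C57 x CBA. The pluripotent cells came from the OG2 ESC line, 1 line that carries GFP under the distal *Oct4* promoter. Naïve cells were kept in S/L medium (serum and leukemia inhibitory factor), primed cells in F/A medium (bFGF and Activin A in a base with N2, B27 and knockout serum replacement), and both were grown on feeder cells, which were MEFs stopped from dividing with mitomycin C. Whether feeders were removed before RNA was extracted is not given in the sources used here. Each state was sequenced at passage 5 (P5) and passage 15 (P15), with 2 libraries a group, and the MEF group had 1 library and therefore no replicate.

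Smooth muscle type contractility rests on actin filaments and myosin II. In these cells α and γ smooth muscle actin form thin filaments, the regulatory light chain switches myosin on when it is phosphorylated, and tropomyosin, caldesmon, calponin and transgelin line the filament and tune or bundle it. Cultured fibroblasts that turn contractile (myofibroblasts) are known for the same set, which is classically driven by serum response factor (SRF) bound to CArG boxes together with myocardin-related coactivators, downstream of RhoA and TGF-β signals. In pluripotent cultures grown on fibroblasts, RNA of the feeder cells can be sequenced with that of the stem cells, and in bulk RNA fewer cells of a type and less RNA per cell cannot be told apart.

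The libraries held 14378051 to 20985136 counts in naïve and primed cells and 25646547 in MEFs, so that 3 counts, taken as the limit of detection, were worth 0.148 to 0.221 CPM (counts per 1e6 counts) and 0.128 CPM. Levels are given in CPM after TMM scaling over all 9 libraries. The labels were checked with marker lists. The 24 fibroblast markers (collagens, *Fn1*, *Sparc*, *Thy1* and others) summed to 92070 CPM in MEFs, 13350 to 13410 in naïve P5, 21820 to 22740 in naïve P15, 9739 to 9974 in primed P5 and 18190 to 18900 in primed P15 cells, and none of them was at 0 in a whole group. The 6 pluripotency markers summed to 2.89 CPM in MEFs and to between 1270 and 3363 CPM in the pluripotent libraries. The 5 naïve markers summed to 1401 to 1662 CPM in naïve, 84.9 to 164.7 in primed and 99.9 in MEF libraries, and the 5 primed markers to 42.2 to 59.7, 656.8 to 688.5 and 1.999 CPM. The study calls its repeats biological, without saying what was repeated. The labels do not say whether the libraries of a group came from separate cultures, so p-values measure the spread between these libraries, and intervals and detection limits cover counting error only.

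The promoters of 4 of the genes are shown first because the CArG box is the textbook element of this set. Whether a box goes with the changes in level described below was not tested. A CArG box is CC and GG around a core of A and T letters, and reads as a CArG box on either strand. Windows from 250 bases before to 50 bases after the start site, from RefSeq on GRCm38.p6, were at hand for 8 of the 10 genes (*Tagln* and *Actg2* had no entry). Capitals mark each match, either strict or with 1 other letter in the core. The *Acta2* window lies at chr19:34255324-34255623 on the minus strand, that of *Myl9* at chr2:156775214-156775513, that of *Cnn2* at chr10:79988350-79988649 and that of *Cnn1* at chr9:22099003-22099302, the last 3 on the plus strand.
Acta2: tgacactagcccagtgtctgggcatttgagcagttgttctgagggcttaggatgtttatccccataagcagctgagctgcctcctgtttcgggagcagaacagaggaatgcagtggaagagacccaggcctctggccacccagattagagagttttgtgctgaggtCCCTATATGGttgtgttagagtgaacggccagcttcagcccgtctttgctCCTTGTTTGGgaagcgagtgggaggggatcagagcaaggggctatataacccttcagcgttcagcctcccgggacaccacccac
Myl9: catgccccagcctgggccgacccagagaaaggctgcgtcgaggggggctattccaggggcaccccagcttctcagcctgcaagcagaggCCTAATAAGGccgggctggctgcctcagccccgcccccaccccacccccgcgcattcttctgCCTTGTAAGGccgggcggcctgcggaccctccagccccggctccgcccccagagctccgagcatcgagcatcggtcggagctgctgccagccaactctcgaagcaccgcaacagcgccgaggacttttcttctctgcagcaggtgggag
Cnn2: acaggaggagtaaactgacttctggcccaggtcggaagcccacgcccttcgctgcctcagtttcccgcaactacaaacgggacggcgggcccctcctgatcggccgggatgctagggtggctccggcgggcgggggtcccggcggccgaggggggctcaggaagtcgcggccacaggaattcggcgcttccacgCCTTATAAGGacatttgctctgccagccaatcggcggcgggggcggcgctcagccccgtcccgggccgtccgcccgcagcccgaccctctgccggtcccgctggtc
Cnn1: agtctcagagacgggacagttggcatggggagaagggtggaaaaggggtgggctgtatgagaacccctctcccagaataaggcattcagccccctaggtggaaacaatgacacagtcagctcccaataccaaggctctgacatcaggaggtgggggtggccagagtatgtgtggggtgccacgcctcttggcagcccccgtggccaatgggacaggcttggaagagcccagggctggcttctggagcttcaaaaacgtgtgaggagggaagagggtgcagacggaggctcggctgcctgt
A strict box was found in 2 of the 8 genes with a window, in *Myl9* (bases -161 to -152 from the start site) and *Cnn2* (-56 to -47). With 1 other letter allowed, *Acta2* held a pair (-84 to -75 and -34 to -25) and *Myl9* gained another (-99 to -90). Over all 32851 RefSeq windows of this length, 1.63% held a strict box and 9.98% a box with at most 1 other letter. The windows of *Cnn1*, *Tagln2*, *Tpm1*, *Tpm2* and *Cald1* held neither, which says only that these letters are not in these windows.

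In the comparison of primed with naïve cells, the smooth muscle actins, *Myl9* and *Tpm2* were lower in primed cells at both passages. *Tagln* and *Cnn1* were also lower at both and *Tagln2* higher at both, but the P5 calls of *Tagln* and *Cnn1* and the P15 call of *Tagln2* were lost under other settings given below, and *Tpm1*, *Cnn2* and *Cald1* depended on the passage or the scaling. At P5, 7 of the 10 lay lower under the primed state and 3 (*Tpm1*, *Tagln2* and *Cnn2*) higher at an adjusted p under 0.01, where 31.3% of the 16482 genes tested were lower and 30.5% higher. At P15, 8 were lower and 1 (*Tagln2*) higher, where 27.9% of the 15733 genes tested were lower and 28.3% higher. The median log2 fold change of the 10 genes was -0.51 at P5 and -1.42 at P15, beside -0.0011 and 0.0032 over all genes tested. With libraries scaled by their totals alone, 4 of the genes (*Acta2*, *Actg2*, *Myl9* and *Tpm2*) were called lower at P5. *Cald1* was then called higher (log2 fold change 0.11, edgeR quasi-likelihood adjusted p = 0.00314). The share of higher among all called genes moved from 49.4% to 65.7%. Under the primed state, 15 of the 24 fibroblast markers lay lower and 6 higher at P5 (median -0.46), and 8 lay lower and 9 higher at P15 (median 0.064). Their part in the result was not tested.

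**Figure D1:**
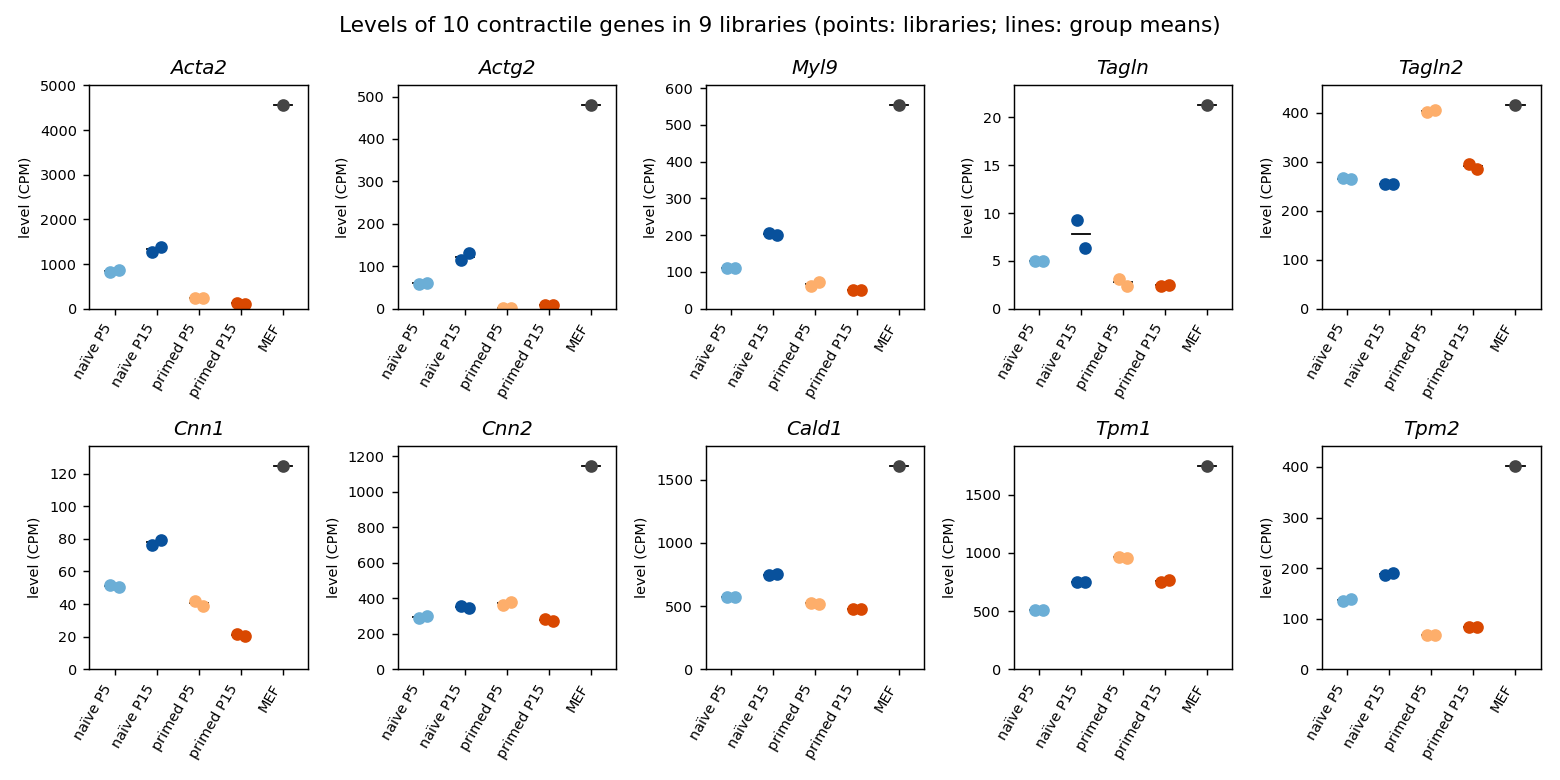
CPM (linear axis from 0) of each of the 10 genes in the 2 naïve P5, 2 naïve P15, 2 primed P5, 2 primed P15 libraries and the 1 MEF library; points are libraries and lines group means. The MEF library is the highest for each gene, from 21.3 CPM for *Tagln* to 4554 CPM for *Acta2*, and the 2 libraries of a group lie close together except for *Tagln* in naïve P15 cells (9.28 and 6.40 CPM).

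*Acta2* (ENSMUSG00000035783; GRCm38 chr19:34241090-34255590, minus strand) codes for α smooth muscle actin, the classical myofibroblast marker. Its level was 823 and 860 CPM in the naïve P5, 1278 and 1374 in the naïve P15, 244 and 229 in the primed P5, 122 and 114 in the primed P15 libraries, and 4554 CPM in MEFs (exact Poisson 95% interval 4527 to 4581). No 2 groups overlapped, and primed P15 was the lowest. The log2 fold change of primed against naïve cells was -1.81 ± 0.037 (SE, n = 2 libraries a group) at P5 and -3.49 ± 0.061 at P15, with adjusted p = 1.91e-21 and 1.59e-29 by the quasi-likelihood test of edgeR (Benjamini-Hochberg adjustment), which gave all adjusted p-values in this text unless another test is named. That is 3.5-fold lower at P5 and 11.2-fold lower at P15.

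*Actg2* (ENSMUSG00000059430; chr6:83512905-83536265, minus strand) codes for γ smooth muscle actin, the enteric form, and showed the largest fold change of the 10 genes at both passages. It stood at 58.2 and 61.3 CPM in naïve P5, 114 and 131 in naïve P15, 2.73 and 2.33 in primed P5, 8.72 and 9.09 in primed P15 libraries and 479 CPM in MEFs. The 2 primed P5 values rest on 55 and 42 counts, above the limit of 3 counts. Both primed groups lay far below both naïve groups, and unlike *Acta2* the lower of the 2 was P5. The log2 fold change was -4.53 ± 0.11 at P5 and -3.79 ± 0.095 at P15 (edgeR quasi-likelihood test, Benjamini-Hochberg adjusted p = 3.23e-20 and 1.54e-25). The number of *Acta2* CPM for each *Actg2* CPM was 14.1 and 14 in naïve P5, 11.2 and 10.5 in naïve P15, 89.3 and 98.4 in primed P5, 14 and 12.6 in primed P15 libraries and 9.5 in MEFs, so the primed P5 libraries alone stood apart.

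*Myl9* (ENSMUSG00000067818; chr2:156775420-156781658, plus strand) codes for the regulatory light chain of smooth muscle and non-muscle myosin II. It measured 111 and 112 CPM in naïve P5, 207 and 200.3 in naïve P15, 62.9 and 71.6 in primed P5, 51.6 and 49.6 in primed P15 libraries, and 554 CPM in MEFs. The groups did not overlap. It was lower in primed cells by a log2 fold change of -0.71 ± 0.053 at P5 and -2.01 ± 0.067 at P15 (edgeR quasi-likelihood test, Benjamini-Hochberg adjusted p = 4.48e-11 and 3.27e-22).

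*Cnn1* and *Cnn2* code for calponins, which bind actin and hold back the myosin ATPase; *Cnn1* is the form of differentiated smooth muscle and *Cnn2* is found in many cell types. *Cnn1* (ENSMUSG00000001349; chr9:22099216-22109630, plus strand) was at 51.8 and 50.5 CPM in naïve P5, 76.1 and 79.5 in naïve P15, 41.7 and 39.1 in primed P5 and 21.8 and 20.3 in primed P15 libraries, against 125 CPM in MEFs. *Cnn2* (ENSMUSG00000004665; chr10:79988584-79996062, plus strand) was at 288 and 299, 354 and 347, 365 and 379, and 283 and 275 CPM in the same order, against 1144 CPM in MEFs. *Cnn1* fell stepwise from naïve to primed P5 to primed P15 cells, while the levels of *Cnn2* spread over less than 1.5-fold, with primed P5 as the highest and primed P15 as the lowest of the pluripotent groups. The log2 fold change of *Cnn1* was -0.32 ± 0.062 at P5 and -1.89 ± 0.085 at P15 (edgeR quasi-likelihood test, Benjamini-Hochberg adjusted p = 0.000105 and 8.56e-19). The P5 call of *Cnn1* was lost with scaling by library totals (log2 fold change -0.10, edgeR quasi-likelihood adjusted p = 0.138, over a range of 9.51e-07 to 0.138 among the alternatives). *Cnn2* was higher in primed cells at P5 (0.37 ± 0.036) and lower at P15 (-0.34 ± 0.056), both called (edgeR quasi-likelihood test, Benjamini-Hochberg adjusted p = 3.83e-09 and 4.36e-06).

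*Cald1* (ENSMUSG00000029761; chr6:34598500-34775473, plus strand) codes for caldesmon, which blocks myosin from actin until calcium signals release it. Its level was 569 and 569 CPM in naïve P5, 743 and 755 in naïve P15, 526 and 519.8 in primed P5 and 481 and 481 in primed P15 libraries, against 1608 CPM in MEFs. The primed values were the lower ones at each passage, by a margin that was small at P5. The log2 fold change at P15 was -0.64 ± 0.052 (edgeR quasi-likelihood test, Benjamini-Hochberg adjusted p = 2.76e-12). At P5 it was -0.10 ± 0.031 with an edgeR quasi-likelihood adjusted p of 0.0073. This call was lost when any 1 of the 4 libraries was left out (log2 fold change -0.11 to -0.092). With scaling by library totals *Cald1* was called higher instead (0.11, edgeR quasi-likelihood adjusted p = 0.00314).

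The transgelins are small actin-bundling proteins related to calponin. *Tagln* (SM22α, an early smooth muscle marker) is nearly specific to smooth muscle type cells, while *Tagln2* is widespread. *Tagln2* (ENSMUSG00000026547; chr1:172500047-172507380, plus strand) was at 266 and 265 CPM in naïve P5, 254 and 255 in naïve P15, 401 and 405 in primed P5 and 296 and 285 in primed P15 libraries and at 415 CPM in MEFs. Its primed P5 level thus came close to that of MEFs. It was higher in primed cells by 0.62 ± 0.034 on the log2 scale at P5 (edgeR quasi-likelihood test, Benjamini-Hochberg adjusted p = 9.17e-14). At P15 the difference was 0.19 ± 0.057 (edgeR quasi-likelihood adjusted p = 0.00459), and this call was lost without either naïve P15 library or without the primed P15 replicate 1 (adjusted p = 0.025 to 0.041).

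*Tagln* (ENSMUSG00000032085; chr9:45929619-45936058, minus strand) had the lowest counts of the 10 genes, and its level and rank are uncertain. Of its 1988 exonic bases, 1241 are shared with the antisense gene Gm48529 and 108 with *Pcsk7*, both annotated on the opposite strand, so that 67.9% of its exonic sequence overlaps another gene. How reads that overlap more than 1 gene were counted is not given in the sources used here, and they may have been left out. The library kit named in the labels does not mark strand, so reads of a gene and its antisense partner cannot be told apart, and 58.3% of its 50-base stretches occur in transcripts of those genes, against 0 to 0.565% for the other genes. *Tagln* was at 4.97 and 4.997 CPM in naïve P5, 9.28 and 6.40 in naïve P15, 3.13 and 2.39 in primed P5 and 2.41 and 2.50 in primed P15 libraries, and at 21.3 CPM in MEFs (exact Poisson 95% interval 19.4 to 23.2). The primed groups overlapped each other and lay below the naïve ones. Its log2 fold change was -0.82 ± 0.21 at P5 and -1.67 ± 0.24 at P15 (edgeR quasi-likelihood test, Benjamini-Hochberg adjusted p = 0.00152 and 2.85e-07). The P5 call was lost without the primed P5 replicate 2 (adjusted p = 0.0342), with the DESeq2 Wald test (0.0223) and with scaling by library totals (0.0136), in a range of 0.00031 to 0.0342 over all alternatives.

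*Tpm1* and *Tpm2* code for tropomyosins, which run along the actin filament and set which other proteins can bind it. *Tpm1* (ENSMUSG00000032366; chr9:67022590-67049406, minus strand) was at 506 and 510.0 CPM in naïve P5, 751 and 751 in naïve P15, 964 and 958 in primed P5 and 749 and 764 in primed P15 libraries, with 1745 CPM in MEFs. *Tpm2* (ENSMUSG00000028464; chr4:43514711-43523765, minus strand) was at 135 and 139, 186 and 191, 68.2 and 67.6, and 84.3 and 83.2 CPM in the same order, with 402 CPM in MEFs. The 2 genes thus went opposite ways at P5: *Tpm1* was highest in primed P5 among the pluripotent groups and *Tpm2* lowest. At P15 the naïve and primed levels of *Tpm1* overlapped. *Tpm1* was higher in primed cells by 0.94 ± 0.031 on the log2 scale at P5 (edgeR quasi-likelihood test, Benjamini-Hochberg adjusted p = 9.58e-18). At P15 its log2 fold change of 0.0069 ± 0.051 was not called (edgeR quasi-likelihood adjusted p = 0.914), with an interval of 1.96 SE from -0.094 to 0.107. *Tpm2* was lower by -0.99 ± 0.046 at P5 and -1.17 ± 0.063 at P15 (edgeR quasi-likelihood test, Benjamini-Hochberg adjusted p = 5.94e-15 and 1.03e-16). The ratio of *Tpm1* to *Tpm2* CPM was 3.66 to 4.05 in the naïve libraries, 4.34 in MEFs, 14.1 and 14.2 in primed P5 and 8.89 and 9.19 in primed P15 libraries.

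**Figure D2:**
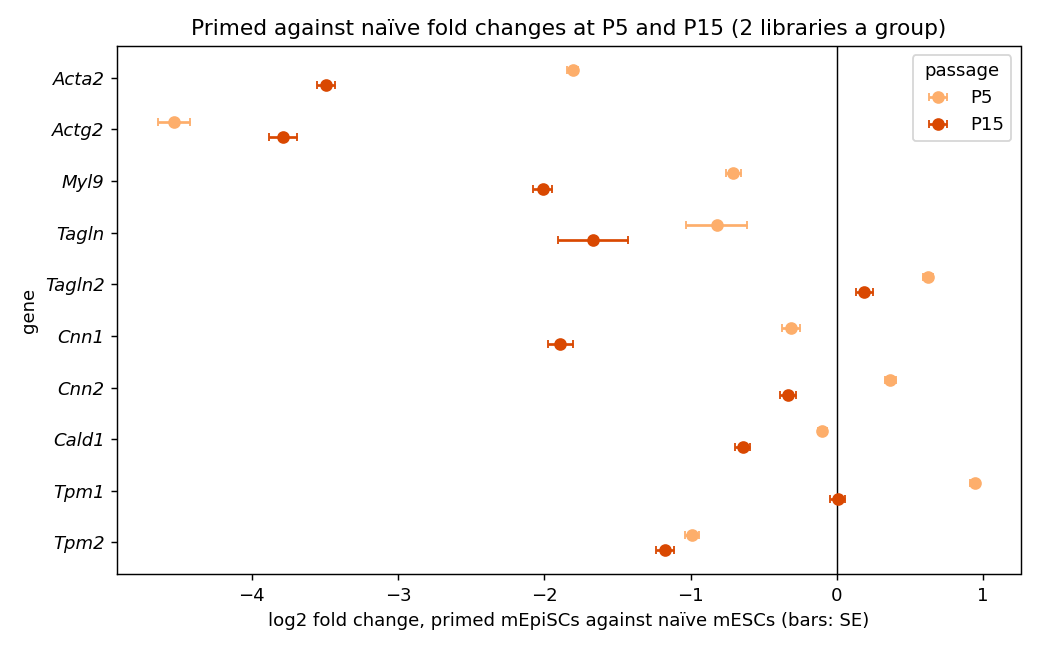
Log2 fold change of primed against naïve cells (horizontal axis) for each of the 10 genes, at P5 (light) and P15 (dark); bars are standard errors from the edgeR fit of 2 against 2 libraries. 7 points lie left of 0 and 3 right of 0 at P5, where *Cald1* at -0.10 moved to 0.11 with scaling by library totals; at P15, 8 lie left of 0, *Tagln2* lies at 0.19 and *Tpm1* at 0.0069, which turned to -0.0082 in the DESeq2 Wald test.

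Whether the state difference itself changed with passage was tested with the interaction of state and passage in a fit of all 8 naïve and primed libraries, which shares its libraries with the 2 comparisons above. The gap between primed and naïve cells moved down from P5 to P15 for 7 of the 10 genes and up for 1, where 10.1% of the 16926 genes tested moved down and 14.6% up, and the median was -0.75 against 0.026 over all genes tested. Of the 24 fibroblast markers, 16 moved up and 1 down, with a median of 0.43, and their part in the result was not tested. The change was -1.66 ± 0.066 for *Acta2*, -1.55 ± 0.10 for *Cnn1*, -1.28 ± 0.085 for *Myl9* and -0.91 ± 0.055 for *Tpm1* on the log2 scale (edgeR quasi-likelihood test, Benjamini-Hochberg adjusted p = 5.06e-19, 1.68e-13, 1.63e-13 and 1.41e-14). *Cnn2* (-0.67), *Cald1* (-0.52) and *Tagln2* (-0.41) also passed. *Actg2* was the exception in direction, with 0.77 ± 0.18 (edgeR quasi-likelihood adjusted p = 0.00123), a call that was lost without the primed P5 replicate 2 (0.64, adjusted p = 0.031, the highest among the alternatives, whose lowest was 0.00026). *Tagln* (-0.82 ± 0.32, edgeR quasi-likelihood adjusted p = 0.049) and *Tpm2* (-0.16 ± 0.075, adjusted p = 0.106) did not pass.

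Within naïve cells, 8 of the 10 genes were higher at P15 than at P5 and none was lower, where 5.27% of the genes tested were higher and 6.43% lower. *Actg2* rose by 1.04 ± 0.068 on the log2 scale, *Myl9* by 0.87 ± 0.056, *Acta2* by 0.66 ± 0.044 and *Cnn1* by 0.61 ± 0.066 (edgeR quasi-likelihood test, Benjamini-Hochberg adjusted p = 2.68e-13, 1.84e-13, 7.35e-13 and 2.55e-08). *Tpm1* (0.56), *Tpm2* (0.46), *Cald1* (0.40) and *Cnn2* (0.26) followed, while *Tagln* (0.64 ± 0.20, edgeR quasi-likelihood adjusted p = 0.0207) and *Tagln2* (-0.061 ± 0.044, adjusted p = 0.379) did not pass. Of the 24 fibroblast markers, 16 were higher and 2 lower in the same comparison, with a median of 0.47, and their part in the result was not tested.

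Within primed cells the genes went both ways. At P15, 6 of the 10 were lower than at P5 and 2 higher, where 19.9% of the genes tested were lower and 24.7% higher. *Acta2* fell by 1.002 on the log2 scale (SE 0.049) and *Cnn1* by 0.94 (SE 0.079), and *Tagln2* (-0.47), *Cnn2* (-0.42), *Myl9* (-0.41) and *Tpm1* (-0.34) fell less (edgeR quasi-likelihood adjusted p between 3.74e-17 and 2.73e-06). *Actg2* rose by 1.81 ± 0.16 and *Tpm2* by 0.30 ± 0.055 (edgeR quasi-likelihood test, Benjamini-Hochberg adjusted p = 6.78e-11 and 2.86e-05), the latter not called with scaling by library totals (0.14, adjusted p = 0.0363, over a range of 9.18e-07 to 0.0363). *Cald1* (-0.12 ± 0.040, edgeR quasi-likelihood adjusted p = 0.0111) and *Tagln* (-0.17 ± 0.26, adjusted p = 0.586) did not pass. Of the 24 fibroblast markers, 20 were higher and 1 lower in the same comparison, with a median of 0.99, and their part in the result was not tested.

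Against the MEF library, which has no replicate and so allows no test, each of the 10 genes was lower in every pluripotent library. MEF levels were at least 2-fold above the group mean for 9 genes in naïve P5, 8 in naïve P15, 8 in primed P5 and 9 in primed P15 cells, where 20.4%, 20.2%, 15.1% and 15.1% of 17180 genes passed the same fold. The median gene stood at 27.4% of the MEF level in naïve P5, 40.0% in naïve P15, 24.7% in primed P5 and 18.9% in primed P15 cells. The medians of the 24 fibroblast markers were 14.1 to 14.3%, 19.0 to 20.1%, 14.1 to 14.7% and 25.3 to 25.4% in the libraries of the same groups, so the median contractile gene lay above the median fibroblast marker in all but the primed P15 cells.

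The spread among the genes was widest in primed cells. In naïve P5 cells the genes ran from 12.5% of the MEF level (*Actg2*) to 63.9% (*Tagln2*), and in naïve P15 cells from 25.6% (*Actg2*) to 62.4% (*Cnn1*). In primed P5 cells they ran from 0.528% (*Actg2*, with MEFs 189-fold higher) to 97.0% (*Tagln2*), and in primed P15 cells from 1.86% (*Actg2*) to 70.0% (*Tagln2*). *Acta2* stood at 18.5%, 29.1%, 5.2% and 2.6% in naïve P5, naïve P15, primed P5 and primed P15 cells, and *Myl9* at 20.1%, 36.8%, 12.1% and 9.14%. *Tpm1*, in contrast, stood at 29.1%, 43.1%, 55.1% and 43.4%. *Cnn2* stood at 25.6%, 30.6%, 32.5% and 24.4%, close to each other beside the spread of the actins.

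**Figure D3:**
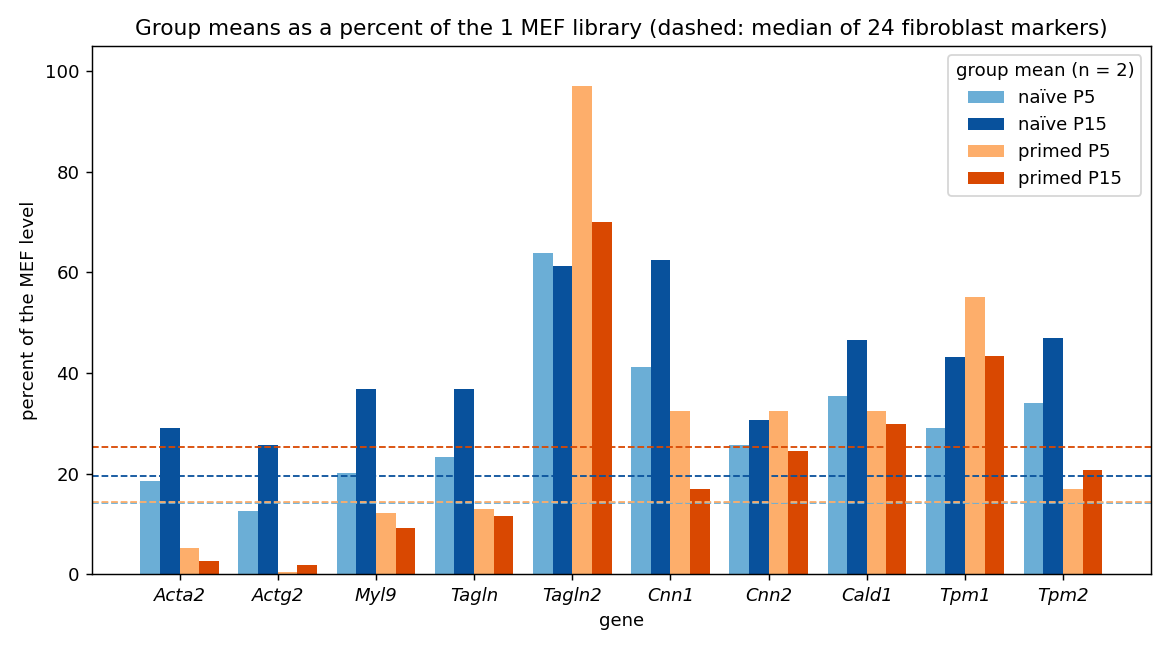
Mean level of each gene in the 4 pluripotent groups (2 libraries each) as a percent of its level in the 1 MEF library; dashed lines give the median of the 24 fibroblast markers in the same groups. In primed cells *Acta2* and *Actg2* (5.2% and 0.528% at P5, 2.6% and 1.86% at P15) fall below the dashed lines. *Myl9* (12.1% and 9.14%) and *Tagln* (13% and 11.5%) also do so at both passages. *Cnn1* (16.9%), *Tpm2* (20.8%) and *Cnn2* (24.4%) do so at P15 only. *Actg2* is below the line in naïve P5 cells too (12.5%). *Tagln2* reaches 97.0% in primed P5 cells.

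Since the feeders of both states are MEFs, each gene was also set against the summed CPM of the 24 fibroblast markers of its own library. For each 1000 CPM of fibroblast markers there were 62.9 CPM of *Acta2* in naïve P5, 59.5 in naïve P15, 24 in primed P5 and 6.38 in primed P15 cells (means of 2 libraries), and 49.5 in MEFs. *Actg2* gave 4.46, 5.50, 0.257 and 0.481, and 5.21 in MEFs. On this scale *Acta2* stood above its MEF value in the naïve libraries, and *Actg2* lay around its own, at 4.36 to 5.75. Both smooth muscle actins stood below their MEF values in the primed libraries. *Myl9* gave 8.32, 9.14, 6.83 and 2.73, against 6.01 in MEFs.

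Other members stood above MEFs on the same scale. *Tpm1* gave 38.0 and 33.7 in naïve P5 and P15, 97.5 in primed P5 and 40.8 in primed P15 cells, against 18.9 in MEFs, and *Tagln2* gave 19.8, 11.4, 40.9 and 15.7 against 4.51. *Cnn2* (21.9, 15.7, 37.7 and 15 against 12.4) and *Cald1* (42.5, 33.6, 53 and 26 against 17.5) were likewise above MEFs in each group. *Cnn1* gave 3.82, 3.49 and 4.10 in naïve P5, naïve P15 and primed P5 cells, 1.13 in primed P15 cells and 1.35 in MEFs. The scale itself depends on the markers chosen. *Fn1* was at 3701, 5308, 3404 and 2836 CPM in naïve P5, naïve P15, primed P5 and primed P15 cells and 5942 CPM in MEFs. It thus made up a larger part of the sum in the pluripotent libraries than in MEFs, and a scale without it was not tested. *Dcn*, a proteoglycan gene of the list, was at 461 ± 5.43 CPM in primed P5 and 734 ± 20.2 in primed P15 cells (SD, n = 2), above the 211 CPM of MEFs. *Col1a1* was at 2.92% and 10.2% of its MEF level in the same groups.

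**Figure D4:**
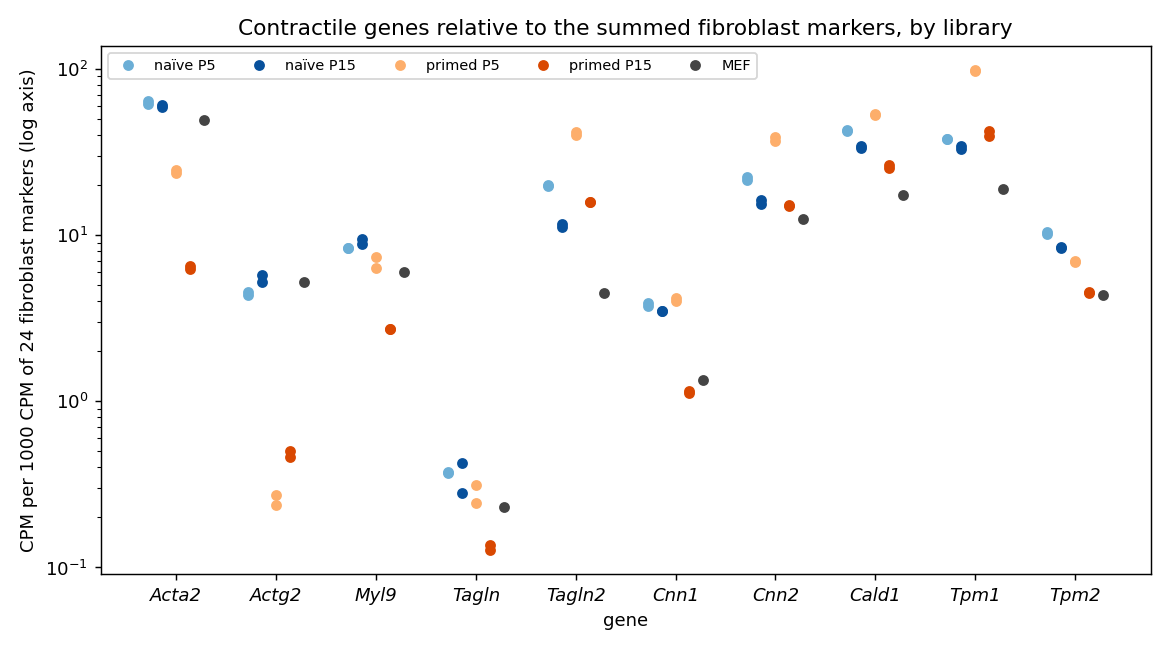
CPM of each gene for every 1000 CPM of the 24 summed fibroblast markers (log axis), by library; colours are the 5 groups. For *Acta2* the naïve libraries sit at 58.5 to 64.1, the MEF library at 49.5, the primed P5 libraries at 23.5 and 24.5 and the primed P15 libraries at 6.28 and 6.47, while for *Tpm1* the MEF library is the lowest at 18.9.

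Markers of smooth muscle, pericytes, striated muscle and endothelium were read in the same libraries. The 10 smooth muscle markers, of which 5 are also in the list of contractile partners below and 1 (*Myocd*) among the regulators, summed to 157 to 158 CPM in naïve P5, 205 to 211 in naïve P15, 136 to 137 in primed P5, 101 to 108 in primed P15 cells and 712 CPM in MEFs, and none was at 0 in a whole group. Of the 10, 3 were called higher and 4 lower in primed cells at P5, near the 30.5% and 31.3% of all genes tested. Of the 9 tested at P15, 1 was higher and 6 lower, beside 28.3% and 27.9% of all genes tested. *Smtn* (smoothelin) had another order than *Acta2*, with 36.6 and 41.7 CPM in naïve P5 and P15 and 63.9 and 58.1 in primed P5 and P15 cells. *Myh11*, the smooth muscle myosin heavy chain, had the same order of groups as *Acta2*. It stood at 12.6 ± 0.29 CPM in naïve P5, 23.3 ± 0.866 in naïve P15, 2.79 ± 0.291 in primed P5 and 1.40 ± 0.0504 in primed P15 cells (SD, n = 2). Its level in MEFs was 121 CPM. Pericyte markers, mostly *Notch3* in pluripotent cells, summed to 247 to 253, 182 to 200.3, 306 to 332, 334 to 376 and 341 CPM in the same order. *Notch3* alone gave 196.6, 123.1, 274.7 and 314 CPM in the pluripotent groups and 104 in MEFs. The median pericyte marker stood at 3.72 to 3.89%, 11.8 to 12.6%, 7.94 to 10.3% and 7.1 to 8.89% of its MEF level. Striated muscle markers summed to 54.1 to 64.5 CPM in naïve libraries, 166 in primed P5, 34.3 to 40.3 in primed P15 and 62.7 in MEFs, with *Nkx2-5* at 0 in primed P15 cells. Endothelial markers, mostly *Pecam1* in naïve cells, summed to 54.3 to 80.1 CPM in naïve libraries, 21.7 to 22.1 in primed P5, 5.74 to 6.19 in primed P15 and 2.64 in MEFs, with *Cdh5* at 0 in naïve P15 cells. Whether such cells were present in the cultures, and their part in the levels of the contractile genes, was not tested.

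Levels per kilobase of exon give an approximate order of the genes within a group. The length is that of all annotated exons of a gene merged, from 1162 bases for *Myl9* to 6485 for *Tpm1* and 12041 for *Cald1*. A gene whose transcripts each use only some of these exons gets too low a value, so close ranks depend on the annotation. In MEFs *Acta2* led with 2070 CPM per kilobase, followed by *Myl9* (476), *Cnn2* (465), *Actg2* (308), *Tpm1* (269), *Tagln2* (200), *Tpm2* (138), *Cald1* (134), *Cnn1* (45.5) and *Tagln* (10.7). *Acta2* also led in naïve P5 and P15 cells, with 383 and 604 CPM per kilobase. In primed cells *Tagln2* led instead, with 193 at P5 and 140 at P15, and *Acta2* stood at 108 and 53.9. Next to *Tagln2* stood *Cnn2* (151) and *Tpm1* (148) in primed P5 and *Tpm1* (117) and *Cnn2* (113) in primed P15 cells, and *Actg2* stood at 1.63 and 5.72, above *Tagln* only. These are group means, with no test between genes, and the place of *Tagln* is uncertain because most of its exonic bases overlap another gene.

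The closest relatives of the 10 genes were read beside them. The cytoplasmic actin *Actb* was lower in primed cells by a log2 fold change of -0.23 ± 0.029 at P5 and -0.34 ± 0.051 at P15 (edgeR quasi-likelihood test, Benjamini-Hochberg adjusted p = 3.57e-07 and 6.42e-07). The P5 call of *Actb* was lost with scaling by library totals (-0.017, edgeR quasi-likelihood adjusted p = 0.625, over a range of 6.67e-19 to 0.625). The cytoplasmic actin *Actg1* was not called at either passage (-0.058 and 0.015), with a sign that turned at P5 under library totals and at P15 in the DESeq2 Wald test. The striated muscle actins went their own way: cardiac *Actc1* was at 0.694 and 0.858 CPM (means) in naïve P5 and P15, 37.2 in primed P5 and 16.6 in primed P15 cells and 5.02 CPM in MEFs. Its log2 fold change was 5.75 ± 0.16 at P5 and 4.26 ± 0.23 at P15, while skeletal *Acta1* was 1.26 ± 0.064 at P5 and -1.54 ± 0.13 at P15 (edgeR quasi-likelihood adjusted p between 5.77e-19 and 5.53e-12 for the 4 values). Thus at P5 the smooth muscle actins were lower and the striated actins higher in primed cells.

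Among the other relatives, *Tpm3* was not called at either passage (-0.070 and -0.055) and *Tpm4* was lower by -0.16 ± 0.032 and -0.17 ± 0.054, the signs of both at P5 and of *Tpm3* at P15 turning positive under scaling by library totals. *Cnn3*, a broadly expressed calponin, was lower by -0.27 ± 0.033 at P5 and -0.22 ± 0.054 at P15. The neuronal transgelin *Tagln3* stayed between 1.67 and 3.15 CPM in the pluripotent groups, called lower at P5 (-0.88 ± 0.27) and not called at P15 (0.34 ± 0.29). The edgeR quasi-likelihood adjusted p was 0.000105 and 0.00649 for *Tpm4*, 1.72e-07 and 0.000844 for *Cnn3* and 0.00515 and 0.314 for *Tagln3*. With scaling by library totals the P15 call of *Tpm4* (edgeR quasi-likelihood adjusted p = 0.229), both calls of *Cnn3* (0.123 and 0.052) and the P5 call of *Tagln3* (0.0279) were lost. The P15 call of *Tpm4* was also lost without either naïve P15 library or without the primed P15 replicate 1 (adjusted p = 0.0145 to 0.0808), and that of *Cnn3* without the naïve P15 replicate 2 (0.0196). That of *Tagln3* at P5 was also lost with no filter (0.0105), with the DESeq2 Wald test (0.0523) and without the naïve P5 replicate 2 or either primed P5 library (0.0266 to 0.0383).

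**Figure D5:**
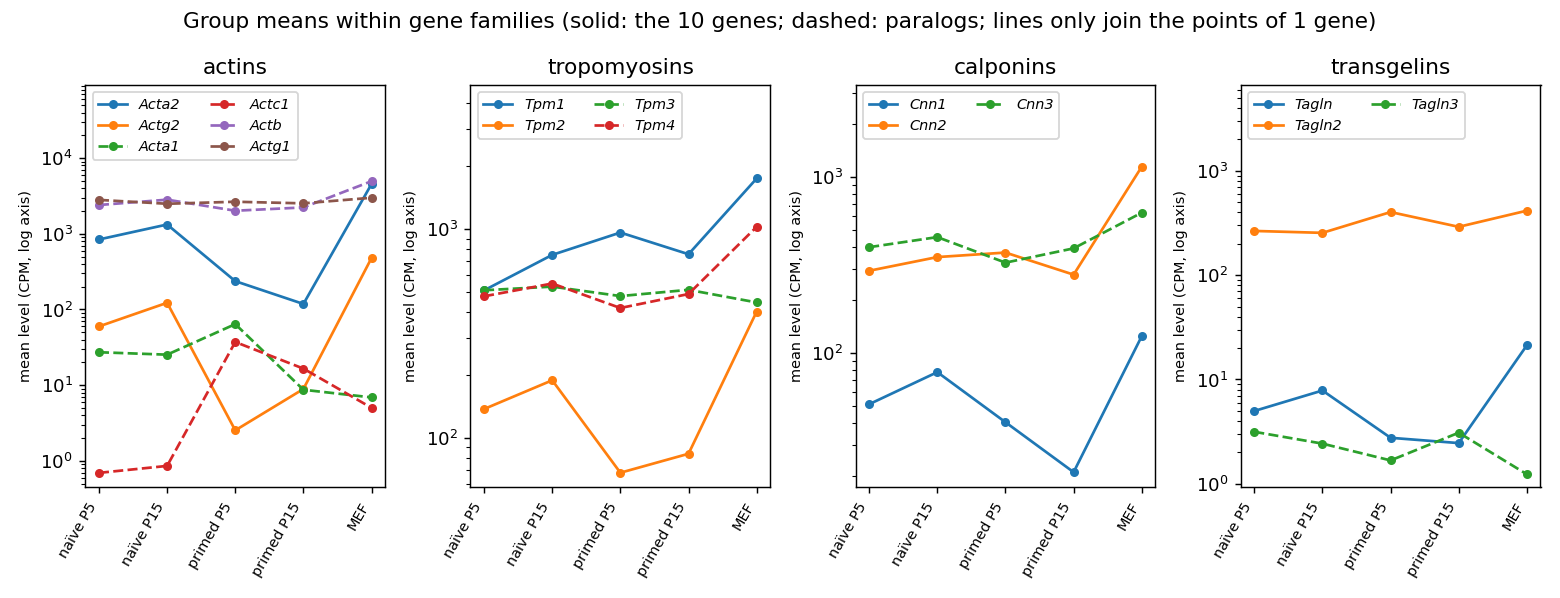
Group means in CPM (log axis) for the actins, tropomyosins, calponins and transgelins, with the 10 genes as solid and their relatives as dashed lines; lines only join the points of 1 gene. *Acta2* runs from 118 CPM in primed P15 cells to 4554 CPM in MEFs and *Actg2* from 2.53 to 479 CPM, while *Actb* and *Actg1* do not fall below 2017 CPM in any group.

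The wider contractile apparatus was read from a list of 34 partners (other actins and myosins, their light chains, cross-linkers and adhesion proteins), all of which were tested. At P5, 9 were higher and 15 lower in primed cells, with a median of -0.064, beside 30.5% and 31.3% of all genes tested and a median of -0.0011. At P15, 4 were higher and 18 lower, with a median of -0.20, beside 28.3% and 27.9% and a median of 0.0032. For the change of the state difference with passage, 3 moved up and 19 down, beside 14.6% and 10.1% of all genes. Within naïve cells 19 were higher and 1 lower at P15 than at P5 (5.27% and 6.43% of all genes), and within primed cells 9 were higher and 14 lower (24.7% and 19.9%).

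By the rule of the 3 smallest adjusted p in each direction at P15, the partners named as lower were *Des* (desmin, the muscle intermediate filament), *Lmod1* (leiomodin, which nucleates smooth muscle actin filaments) and *Myh11*. Their log2 fold changes at P15 were -2.38 ± 0.10, -2.76 ± 0.12 and -4.05 ± 0.19 (edgeR quasi-likelihood test, Benjamini-Hochberg adjusted p = 1.75e-19, 4.12e-19 and 1.47e-18), after -0.37, -2.15 and -2.16 at P5. Those named as higher were *Actc1*, given above, *Smtn* (smoothelin, an actin-binding protein of contractile smooth muscle; 0.47 ± 0.08) and *Myh10* (non-muscle myosin IIB; 0.28 ± 0.057), with edgeR quasi-likelihood adjusted p = 5.46e-06 and 8.66e-05.

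Regulators and known responders of SRF, RhoA and TGF-β signalling made a list of 30, all tested at P5 and 29 at P15, where *Myocd* (myocardin) was too low, with mean levels of 0.330 CPM in naïve and 0.428 CPM in primed P15 cells. At P5, 13 were higher and 11 lower in primed cells, with a median of 0.099, beside 30.5% and 31.3% of all genes tested and a median of -0.0011. At P15, 7 were higher and 14 lower, with a median of -0.24, beside 28.3% and 27.9% and a median of 0.0032. For the change of the state difference with passage, 5 moved up and 8 down (14.6% and 10.1% of all genes). Within naïve cells 9 were higher and 4 lower at P15 (5.27% and 6.43%), and within primed cells 8 were higher and 11 lower (24.7% and 19.9%).

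Among the regulators named as lower at P15 were *Thbs1* (thrombospondin 1, an activator of latent TGF-β; -2.93 ± 0.053) and *Fhl1* (a LIM domain protein of muscle; -2.46 ± 0.083), with edgeR quasi-likelihood adjusted p = 3.14e-29 and 5.37e-22. At P5 they stood at -2.70 and -0.78. *Thbs1* was at 2783 ± 56 CPM in naïve P5, 3655 ± 108 in naïve P15, 422 ± 3.29 in primed P5 and 479.6 ± 6.13 in primed P15 cells (SD, n = 2), with both primed groups below both naïve groups. Named as higher were *Tgfbr3* (betaglycan, a co-receptor; 2.52 ± 0.092), *Smad3* (a signal carrier of the TGF-β and Activin receptors; 0.93 ± 0.073) and *Tgfb1* (a ligand; 0.96 ± 0.084), with edgeR quasi-likelihood adjusted p = 4.26e-21, 1.45e-12 and 1.58e-11.

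The genes followed the mean of all 10 to different degrees. Each gene is part of that mean, and the MEF library was the highest for each gene, which by itself raises the values below. These values do not show that genes moved together between the states. *Cnn2* and *Acta2* went opposite ways at P5 (log2 fold changes of 0.37 and -1.81). As a description over the 9 libraries, which share passages, media and 1 MEF library, the Pearson correlation of each gene with the mean of the 10 standardised genes was 0.993 for *Cald1*, 0.966 for *Myl9*, 0.962 for *Tagln*, 0.914 for *Cnn2*, 0.91 for *Tpm2*, 0.906 for *Cnn1*, 0.905 for *Acta2* and 0.804 for *Actg2*, and lower for *Tpm1* (0.648) and *Tagln2* (0.289). In all, 11363 genes of at least 10 CPM in any library were ranked, the 10 genes included. Outside the 10, the pattern most like that mean was shown by *Mex3b* (r = 0.997), *Lrrfip1* (0.993), *Prkg1* (0.99), *Actn1* (0.99) and *Trim16* (0.988). *Mex3b*, which codes for an RNA-binding protein, was at 20.2 and 33.1 CPM in naïve P5 and P15, 17.7 and 13.5 in primed P5 and P15 cells, and 104 CPM in MEFs. *Actn1*, an actin cross-linker that is also among the partners, was at 442, 506, 420 and 391 CPM and 869 CPM in MEFs.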

How the data were processed

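Poly(A) RNA of 9 samples was sequenced. Per the labels and the study's methods, the authors trimmed reads with Cutadapt, mapped them to mm10 with HISAT2, keeping up to 20 positions a read, and assigned them to Ensembl genes with featureCounts. The table they deposited holds raw counts per gene, with all transcript forms of a gene pooled. Tool versions, strand setting and Ensembl release are not given in the sources used here. The 92 spike-in rows held 0 counts and were left out. Names, positions and exon lengths came from GENCODE M21 (GRCm38). With edgeR 4.0.16 in R 4.3.3, counts were scaled by TMM, genes with at least 10 counts in at least 2 libraries were kept, and quasi-likelihood tests were run on the 4 libraries of a passage (primed against naïve) or on all 8 (interaction, passage within a state). Benjamini-Hochberg adjustment ran over all genes tested, with a call at adjusted p under 0.01. The MEF comparison used CPM over 9 libraries and a fold of 2. Chi-square per gene between replicates was 2.1 to 3.28, above sampling noise.

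The genes and lists (24 fibroblast, 10 smooth muscle, 5 pericyte, 15 striated muscle, 6 endothelial, 6 pluripotency, 5 naïve and 5 primed markers, 34 partners, 30 regulators) were chosen with earlier results of these data known. Named besides the 10 genes were, from partners and regulators, the 3 of smallest adjusted p in each direction at P15 with a mean of at least 10 CPM, the 5 genes of highest Pearson correlation of log2(CPM + 1) with the mean of the genes' z-scores, their paralogs, and markers a result turns on; 1 gene that this rule names is not reported here. Alternatives were DESeq2 size factors, library totals, no filter, DESeq2 1.42.0, a fit of all 8 libraries, a replicate block and leaving out each library.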

Additional observations from a re-analysis of the deposited data

Results flagged for a closer look

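The gap between primed and naïve cells differed between P5 and P15 for 8 of the 10 genes by the interaction term of edgeR's quasi-likelihood test. On the log2 scale (P15 minus P5) the gap changed by -1.66 for *Acta2*, -1.55 for *Cnn1*, -1.28 for *Myl9*, -0.91 for *Tpm1*, -0.67 for *Cnn2*, -0.52 for *Cald1* and -0.41 for *Tagln2*, and by 0.77 for *Actg2*. *Cnn2* is the gene whose difference was called in opposite directions at the 2 passages. For *Actg2* the primed level rose more with passage (3.5-fold) than the naïve level (2.05-fold), while *Acta2* fell 2-fold in primed cells and rose 1.58-fold in naïve cells. Groups of 2 libraries are too small to look for a single outlying library.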

How the results depend on the processing

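Over the 10 genes and 5 tests, 303 values kept direction and side of the threshold under another setting, 9 lost and 6 gained a call and 2 reversed; with 1 library left out, where the lone library is assumed to vary like the others, these were 305, 9, 4 and 2. Scaling by library totals alone moved the most: it shifted the median log2 fold change of all genes to 0.21 (P5), 0.10 (P15), -0.11 (interaction) and -0.15 (passage in primed cells), and the share of higher calls from 59.1% to 35.3% (interaction) and from 55.4% to 34.0% (passage in primed cells). With it 4 genes instead of 7 were lower at P5, and 1 instead of 2 higher with passage in primed cells. It reversed *Cald1* (0.11), *Tpm3* (0.14), *Tpm4* (0.048) and *Actg1* (0.15) at P5, *Tpm3* at P15 (0.043), the interaction of *Smad3* (-0.072), *Tpm3* (-0.0985), *Tpm4* (-0.12), *Cnn3* (-0.0605) and *Actg1* (-0.040), and the primed passage change of *Tpm3* (-0.063) and *Actb* (-0.018). DESeq2 size factors reversed the *Tpm4* interaction (-0.0029), and the DESeq2 Wald test *Tpm1* (-0.0082) and *Actg1* (-6.37e-05) at P15 and the *Tpm4* interaction (-0.012). The cause was not tested. The median percent of the MEF level was 26.8 and 28.7 in naïve P5, 24.2 and 30.5 in primed P5 and 18.0 and 20.8 in primed P15 cells with DESeq2 size factors and library totals, beside 27.4, 24.7 and 18.9.

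The count of genes higher at P15 (1, *Tagln2*) was 0 with the DESeq2 Wald test and with the replicate number as a block (0.19, adjusted p = 0.0172, over a range of 5.97e-05 to 0.041), and 0 to 1 with 1 library left out (0 without either naïve P15 library or without primed P15 replicate 1). The block also ended the P5 call of *Cald1* (adjusted p = 0.0237, range 0.000428 to 0.0609). Same-numbered libraries did not deviate together (r = -0.0727 at P5 and -0.106 at P15 between states, 0.0856 and 0.0911 between passages), so the block is no measure of a pairing. A crossed block, added after seeing the data, called 10693 genes at P5 and 9486 at P15 beside 10181 and 8841. With 1 library left out, the genes moving up in the interaction were 0 (without primed P5 replicate 2) to 1, *Tpm1* at P15 ranged from -0.0037 to 0.017, *Actg1* at P15 from -0.037 to 0.066, the *Tpm4* interaction from -0.018 to 0.045 and the primed passage change of *Tagln* from -0.38 to 0.019. The single MEF library limits the comparison with MEFs to counting error.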
